A study of Mus musculus with 20 samples.

Results

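The imprinted growth control genes are 10 genes, H19, Igf2, Meg3, Dlk1, Peg3, Mest, Plagl1, Cdkn1c, Grb10 and Igf2r, named by symbol and followed in every library of a mouse osteosarcoma series. All 10 symbols were found among 49585 gene IDs in the count table, and all 10 passed the filter on low counts that left 20616 genes for testing. Bulk sequencing of total RNA was made from 18 primary osteosarcomas, malignant bone tumours, of mice of mixed C57BL/6J and 129S/SvJae strain, and from cell line 14, which was grown from such a tumour. The tumours came from 6 p53R172H/+ mice, 3 p53R245W/+ mice and 5 p53R270H/+ mice, each with 1 missense allele of Trp53, and from 4 p53+/- mice labelled p53 heterozygous (here R172H, R245W, R270H and p53 het). Cell line 14 is labelled p53R245/O, a heterozygous mutant with loss of heterozygosity, and was sequenced once after siRNA against p53 and once as a control. The labels give neither the age and sex of the mice nor the state of the wild-type allele in a tumour. Each library is taken as 1 tumour, and p-values measure only the spread between these samples.

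Imprinted genes are expressed mainly from 1 parental allele, which is set by DNA methylation laid down in the germ line and kept through later divisions. Of the members, Igf2, Dlk1, Peg3, Mest and Plagl1 are expressed mainly from the paternal allele in most mouse tissues, and H19, Meg3, Cdkn1c, Grb10 and Igf2r mainly from the maternal allele. Paternally expressed growth genes tend to promote fetal growth and maternally expressed ones to restrain it, and most of them are turned down after birth. RNA counts do not tell the 2 alleles apart, so what follows are levels and not imprinting states.

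The members lie on 6 mouse chromosomes, with coordinates from GENCODE vM21 on GRCm38. H19 (chr7:142575529-142578143, minus strand) is a long noncoding RNA gene 72623 bases from the nearest end of Igf2 (chr7:142650766-142666816, minus strand). Cdkn1c (chr7:143458339-143461050, minus strand) lies further along chromosome 7, and Peg3 (chr7:6703892-6730431, minus strand) near its other end. Dlk1 (chr12:109452823-109463336, plus strand) and the long noncoding RNA gene Meg3 (chr12:109541001-109571726, plus strand) are 77665 bases apart. Mest is at chr6:30723547-30748465 (plus strand), Plagl1 at chr10:13060504-13131694 (plus strand), Grb10 at chr11:11930508-12038683 (minus strand) and Igf2r at chr17:12682406-12769664 (minus strand). Several members overlap other genes, and whether the reads were counted by strand is not given in the sources used here. Copg2, on the opposite strand, covers 23.1% of the exon bases of Mest and had 585 to 2814 counts per library, so some reads of the 2 genes may not be told apart. A same-strand gene model, Gm49394, covers 62.8% of the exon bases of Igf2 in that annotation and was not analysed here. Igf2os, opposite to Igf2, had 0 to 33 counts.

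Promoter sequences from RefSeq (GRCm38.p6) hold 300 bases across a gene's start, most of them before it. They were searched on both strands for TGCCGC, the core of the methylated motif bound by ZFP57, a zinc finger protein that keeps imprints. Of the members 8 matched the table, with 15 promoters, and 6 of these promoters, of 5 members, held the letters, against 11.6% of 32851 promoters. A pair of Mest promoters among the 6 overlap almost whole, so the 6 cover 5 separate regions. The 4 printed are those of the members with a wide and a narrow range between tumours (Grb10 and Igf2r) and of the neighbours Meg3 and Dlk1. Each is written 5′ to 3′ on the gene's strand, with matches to the motif or its reverse complement in capitals.
Grb10 (chr11:12037371-12037670, minus strand): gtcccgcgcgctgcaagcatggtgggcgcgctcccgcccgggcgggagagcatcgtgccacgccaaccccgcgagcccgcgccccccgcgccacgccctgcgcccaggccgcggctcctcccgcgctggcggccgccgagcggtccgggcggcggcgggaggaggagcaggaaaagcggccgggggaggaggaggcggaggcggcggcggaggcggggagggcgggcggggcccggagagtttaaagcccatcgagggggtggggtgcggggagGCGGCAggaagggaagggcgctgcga
Igf2r (chr17:12769657-12769956, minus strand): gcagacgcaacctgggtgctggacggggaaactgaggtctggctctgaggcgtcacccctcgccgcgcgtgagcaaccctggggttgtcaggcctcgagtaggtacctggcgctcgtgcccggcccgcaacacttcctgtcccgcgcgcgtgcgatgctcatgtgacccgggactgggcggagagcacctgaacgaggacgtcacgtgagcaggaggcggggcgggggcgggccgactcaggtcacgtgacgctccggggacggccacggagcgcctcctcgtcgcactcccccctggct
Meg3 (chr12:109540746-109541045, plus strand): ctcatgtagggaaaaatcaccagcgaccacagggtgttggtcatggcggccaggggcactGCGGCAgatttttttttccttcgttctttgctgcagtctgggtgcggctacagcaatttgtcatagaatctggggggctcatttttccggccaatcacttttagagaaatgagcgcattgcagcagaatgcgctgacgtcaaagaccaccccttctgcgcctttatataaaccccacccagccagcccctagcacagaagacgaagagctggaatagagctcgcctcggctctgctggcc
Dlk1 (chr12:109452573-109452872, plus strand): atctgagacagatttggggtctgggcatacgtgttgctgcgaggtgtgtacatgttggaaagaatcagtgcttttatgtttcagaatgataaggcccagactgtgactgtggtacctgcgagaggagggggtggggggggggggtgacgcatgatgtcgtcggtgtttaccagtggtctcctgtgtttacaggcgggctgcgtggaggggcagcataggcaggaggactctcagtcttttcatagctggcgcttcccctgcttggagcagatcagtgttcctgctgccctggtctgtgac

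These Grb10 and Meg3 promoters held the letters once each, and these Igf2r and Dlk1 promoters did not hold them. The printed Grb10 promoter has 45 CpG dinucleotides, the sites of DNA methylation, the Igf2r promoter 34, the printed Meg3 promoter 13 and the Dlk1 promoter 9, against a median of 7 over all promoters. Another promoter of Grb10 has 9 CpG and another of Meg3 has 1, and neither holds the letters. A match is a description of letters and not a bound site, and no methylation was measured here.

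Total counts, in M (megacounts), were 20.1 to 29.2 per tumour library, and 73.4 in the siRNA library and 64.1 in the control library of the line. Levels are in CPM, a gene's counts divided by the total counts of its library in M. A floor of 3 counts, set for a reading of 0 counts, was worth 0.103 to 0.149 CPM in the tumours. Osteoblast markers (14 genes) summed to 34270 to 135600 CPM in the tumours, and all 14 were detected in each of the 18. Skeletal muscle markers (12 genes) summed to 13.9 to 2435 CPM, and macrophage markers (10 genes) to 846 to 2355 CPM. In bulk tissue, fewer cells of a type and less RNA per cell cannot be told apart. Titles of the R172H and R245W tumours and of p53 het 1 and 2 carry a serial number, and those of p53 het 3 and 4 and all R270H tumours do not, so a batch behind that difference cannot be told apart from R270H except through p53 het.

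**Figure D1:**
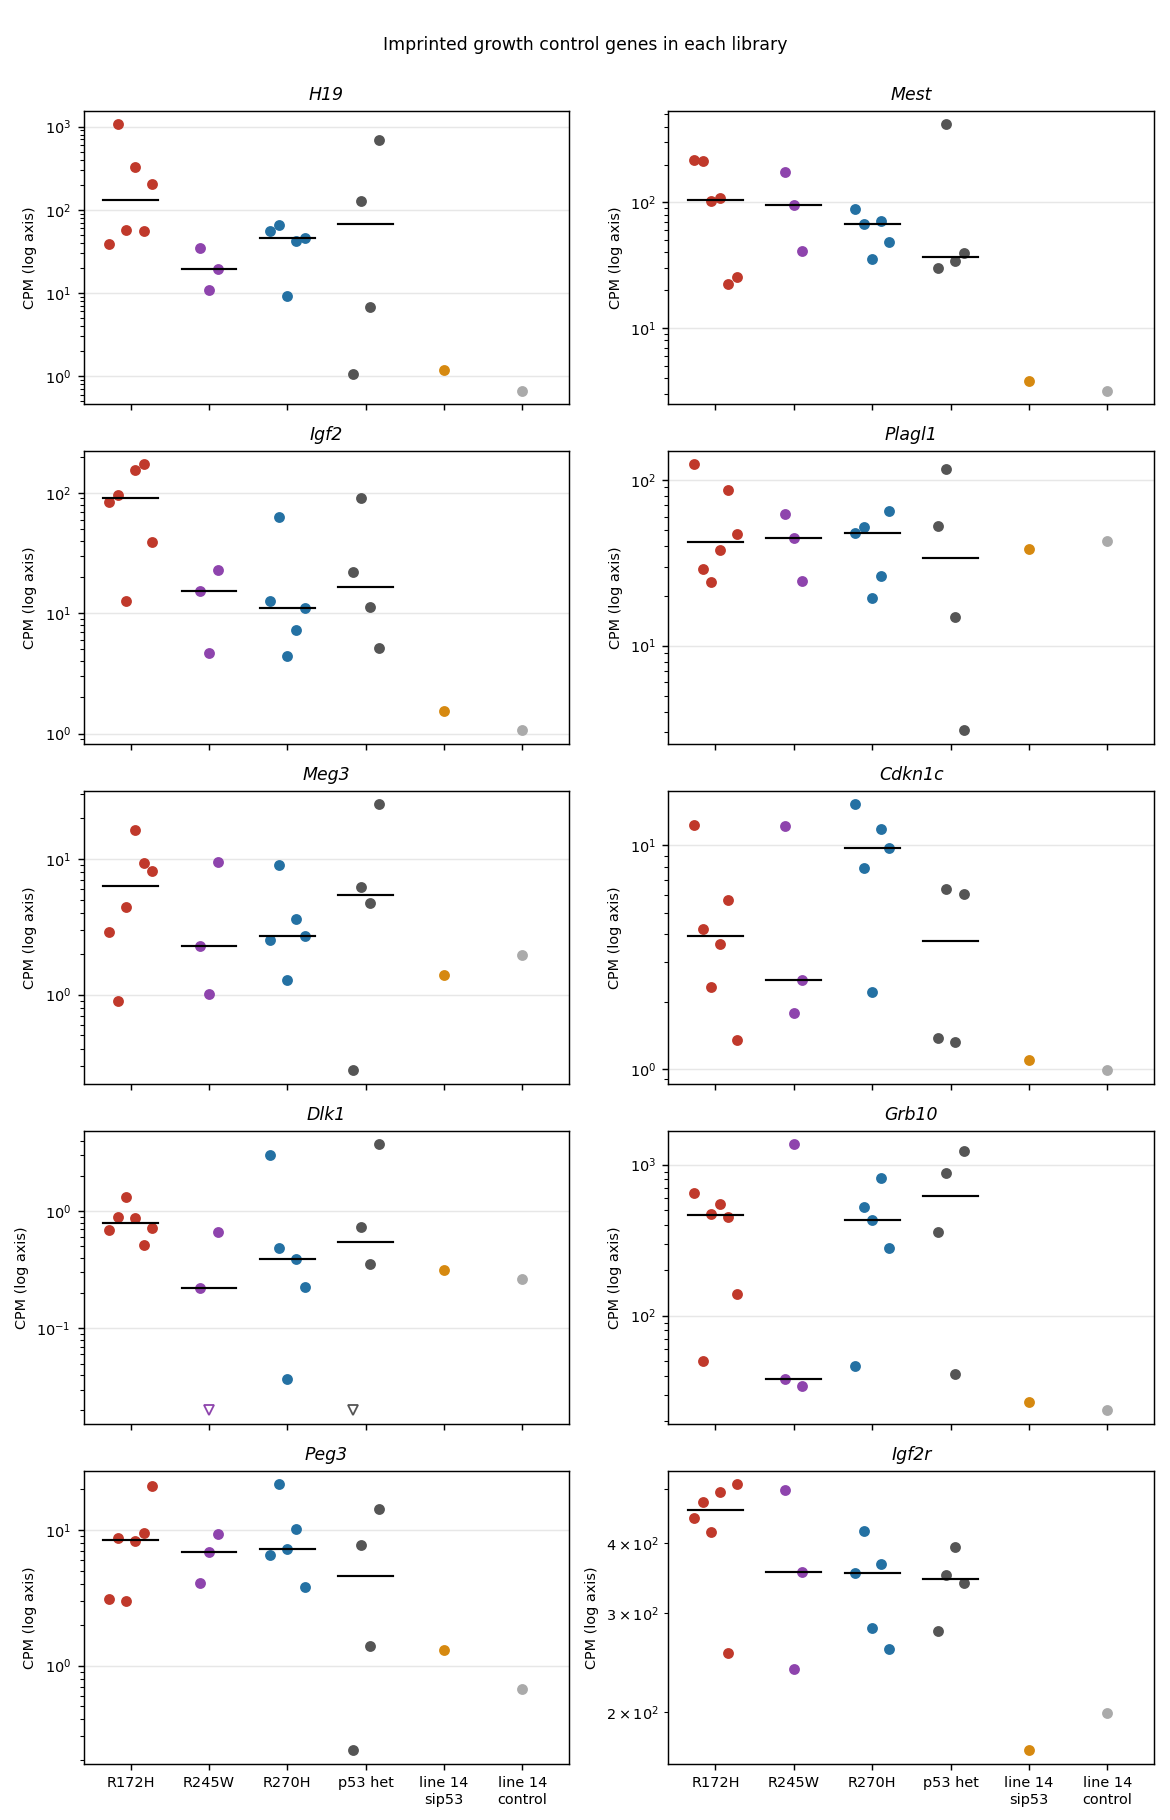
Level in CPM (log axis) of the 10 members in each library, with 1 point per library, a black line at the median of each tumour genotype and open triangles at an arbitrary height for libraries with 0 counts. H19 spans 1.07 to 1066 CPM and Igf2r 239 to 510 CPM over the tumours.

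Igf2 encodes insulin-like growth factor 2, a growth factor of fetal life that signals through the type 1 IGF receptor. Its level was 12.6, 90.1 and 173 CPM (lowest, median and highest) in the 6 R172H tumours. It was 15.4, 4.69 and 22.8 CPM in the R245W tumours. In the R270H tumours 1 to 5 it was 12.8, 62.8, 4.45, 7.19 and 11.1 CPM, and in the p53 het tumours 1 to 4 it was 22, 90.8, 11.3 and 5.10 CPM. Of the R172H tumours, all but R172H 3 and R172H 6 exceeded every R245W and R270H tumour, and the groups overlapped. R270H averaged 19.7 ± 24.3 CPM and R172H 93.4 ± 63.0 CPM (SD, n = 5 and n = 6), a log2 fold change of -2.26 ± 0.83 (SE). The unadjusted p was 0.0141 and the adjusted p 0.112 in edgeR's quasi-likelihood test with Benjamini-Hochberg adjustment over all genes tested. R245W against R172H gave a log2 fold change of -2.64 ± 1.04 (SE) with an adjusted p of 0.368 in edgeR. Igf2 was thus not called in the edgeR test, while DESeq2 called it for R270H against R172H (adjusted p = 0.0246) and for any difference between genotypes (adjusted p = 0.0342). DESeq2 called 2226 and 2475 of 20616 genes in these tests. Without R270H 2, the 1 high tumour of its group, edgeR called Igf2 too, with a log2 fold change of -3.33 and an adjusted p of 0.0372. In that fit 990 of 20490 genes passed in R270H against R172H. With the kind of title as a covariate the sign turned, to 0.69 with an adjusted p of 0.914 in edgeR. That fit links R270H and R172H only through the p53 het tumours. In it 1 of 20616 genes passed in this contrast, beside 1088 without the covariate.

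H19, whose noncoding transcript is made from the maternal allele and hosts a microRNA, had the widest range of the members detected in every tumour, with the highest tumour at 1001 times the lowest. Its level was 38.6, 131 and 1066 CPM (lowest, median and highest) in R172H tumours. It was 34.6, 10.97 and 19.2 CPM in R245W tumours and 55.6, 65.9, 9.27, 41.95 and 45.6 CPM in R270H tumours. In p53 het tumours it was 1.07, 127, 6.71 and 688 CPM, so this genotype held both the lowest tumour of the series and the second highest. All 3 R245W tumours lay below all 6 R172H tumours, the 1 case among 60 of a member and a contrast in which the groups did not overlap. Over all genes tested, 5.24% did not overlap in that contrast, 12.9% in R245W against R270H and 6.72% in R270H against R172H. Against p53 het the shares were 2.15% for R172H, 9.11% for R245W and 3.5% for R270H. The log2 fold change of R245W against R172H was -3.66 ± 1.51 (SE), with an adjusted p of 0.394 in edgeR. R270H against R172H gave -2.70 ± 1.15 (SE, adjusted p = 0.169 in edgeR), and R245W against p53 het -3.24 ± 1.51 (SE, adjusted p = 0.393 in edgeR). Among tumours with serial numbers in their titles, R245W against p53 het was -1.80, with an adjusted p of 0.718 in edgeR. It was -1.28 without p53 het 4 (adjusted p = 0.700 in edgeR) and -0.16 in voom with quality weights (adjusted p = 0.978 in limma). Without R172H 2 the values against R172H were -2.66 for R245W (adjusted p = 0.479 in edgeR) and -1.70 for R270H (adjusted p = 0.367 in edgeR).

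The ratio of H19 to Igf2 within a library does not depend on how libraries are scaled. On the log2 scale of CPM plus 0.1 it was -4.25, 0.48, -0.74 and 7.05 in p53 het tumours 1 to 4, the whole range of the 18 tumours. It averaged 1.06 ± 2.05 in R172H, 0.71 ± 0.83 in R245W, 1.56 ± 0.99 in R270H and 0.64 ± 4.72 in p53 het tumours (SD, n = 6, 3, 5 and 4). None of the 6 contrasts passed an exact two-sided permutation test, with unadjusted p-values of 0.286 to 0.914 and adjusted p-values of 0.997 over 12 tests. With so few tumours the smallest unadjusted p such a test could give was 0.00217 (R270H against R172H) to 0.0286 (R245W against p53 het). Most of these contrasts could therefore not pass the adjustment on their own. Over the 18 tumours, with genotype means removed, H19 and Igf2 had a Pearson r of 0.10 (permutation p = 0.805, adjusted p = 0.929) and a Spearman rho of 0.27 (permutation p = 0.369, adjusted p = 0.691). Without p53 het 1 and p53 het 4 the r was 0.51.

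**Figure D2:**
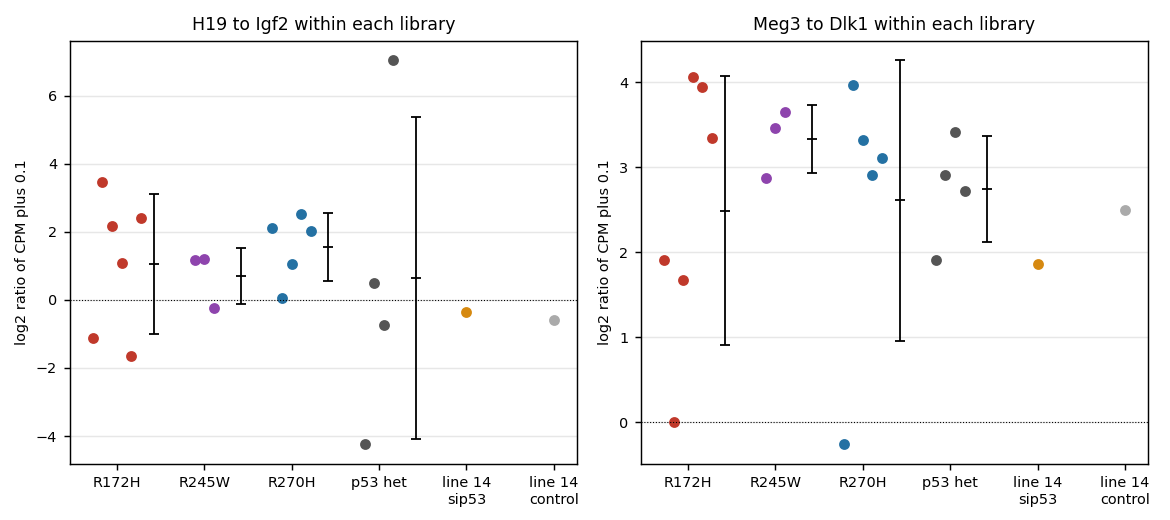
Log2 ratio of H19 to Igf2 (left) and of Meg3 to Dlk1 (right), from CPM plus 0.1, with 1 point per library and black bars at the mean ± SD of each tumour genotype. The H19 to Igf2 ratio runs from -4.25 to 7.05 within the 4 p53 het tumours alone.

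Igf2r encodes the mannose-6-phosphate receptor that takes up IGF2 and delivers it to lysosomes. It was the steadiest member. Its level was 255, 458 and 510 CPM (lowest, median and highest) in R172H tumours, 497, 239 and 356 CPM in R245W tumours, 354, 421, 282, 368 and 259 CPM in R270H tumours and 279, 351, 395 and 340 CPM in p53 het tumours. All genotypes overlapped, and the highest tumour was 2.13 times the lowest. Log2 fold changes over the 6 contrasts lay between -0.34 and 0.21, with adjusted p-values of at least 0.350 in edgeR. The largest in size, R270H against R172H, was -0.34 ± 0.21 (SE).

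Grb10 encodes an adaptor protein that binds the insulin and IGF receptors and dampens their signal. Its tumours fell into a low and a high set that cut across genotype. The low set was R245W 3 at 34.4 CPM, R245W 1 at 37.8 CPM, p53 het 3 at 40.9 CPM, R270H 1 at 46.3 CPM and R172H 2 at 50.2 CPM. R172H 6 stood alone at 138 CPM, 1.46 above the next lower tumour and 1.03 below the next higher on the log2 scale, and the other 12 tumours lay between 281 and 1368 CPM. Each of the 4 genotypes had 1 or 2 tumours in the low set, and R245W held both the lowest and, with R245W 2, the highest tumour of the series. In the fit of all tumours every log2 fold change between genotypes was smaller than 1 in size (from -0.83 to 0.42), with standard errors of 0.94 to 1.19 and adjusted p-values of at least 0.780 in edgeR. Those of R245W were not stable. With 1 tumour left out they ran from -3.38 to 0.97 against R172H, -3.55 to 0.80 against R270H and -4.21 to 0.14 against p53 het, and none passed. With all 18 tumours, the genes whose log2 CPM was most like that of Grb10 by Pearson r were Ewsr1, which encodes an RNA-binding protein fused to other proteins in Ewing sarcoma, and Morc2a. Because the tumours form separate sets no r over all of them is given. Within the 12 high tumours r was 0.59 for Ewsr1 (Spearman rho 0.53) and 0.77 for Morc2a (rho 0.80). Because both genes were picked with these 12 tumours included, these values are not independent of the choice. Both lie on chromosome 11, as Grb10 does and as do 8.45% of the 13320 genes considered, and no cause of this was tested.

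Cdkn1c encodes p57, an inhibitor of cyclin-dependent kinases that helps cells leave the cycle. Its level was 1.35, 3.93 and 12.4 CPM (lowest, median and highest) in R172H tumours and 12.3, 1.78 and 2.51 CPM in R245W tumours. In R270H tumours it was 15.3, 7.89, 2.21, 11.8 and 9.76 CPM, against 1.38, 6.404, 1.32 and 6.06 CPM in p53 het tumours. R270H held 4 tumours above every p53 het tumour and 1 among them, a log2 fold change of 1.17 ± 0.72 (SE) with an adjusted p of 0.567 in edgeR.

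Dlk1 encodes a transmembrane protein of the Notch ligand family that holds back fat cell formation, and Meg3 is the maternally expressed noncoding RNA beside it. Dlk1 was close to the limit of detection. It had 0 counts in R245W 2 and p53 het 1, which allows up to 0.137 and 0.118 CPM there. It was highest in p53 het 4 at 3.73 CPM and in R270H 1 at 3.03 CPM, and lay at or below 1.32 CPM in every other tumour. Meg3 was 0.894, 6.30 and 16.2 CPM (lowest, median and highest) in R172H tumours and 2.27, 1.002 and 9.52 CPM in R245W tumours. It was 2.51, 9.06, 1.27, 3.58 and 2.69 CPM in R270H tumours, against 0.276, 6.18, 4.70 and 25.2 CPM in p53 het tumours. Neither gene passed in any contrast, with adjusted p-values of at least 0.546 for Dlk1 and 0.554 for Meg3 in edgeR, and the groups overlapped in all. The log2 ratio of Meg3 to Dlk1 averaged 2.49 ± 1.58 in R172H, 3.33 ± 0.40 in R245W, 2.61 ± 1.65 in R270H and 2.74 ± 0.62 in p53 het tumours (SD, n = 6, 3, 5 and 4). Its 6 exact two-sided permutation tests gave unadjusted p-values of at least 0.171 and adjusted p-values of at least 0.997, with the same limit on the smallest p as for H19 to Igf2. The log2 ratio of Meg3 to Dlk1 was lowest in R270H 1, at -0.26.

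Peg3 encodes a zinc finger protein expressed from the paternal allele. It ran from 2.99 to 21.2 CPM (median 8.48) in R172H tumours and was 4.06, 6.83 and 9.31 CPM in R245W tumours. In R270H tumours it was 6.52, 21.8, 7.18, 10.2 and 3.81 CPM, against 0.237, 7.73, 1.40 and 14.2 CPM in p53 het tumours. The lowest of all 18 was again p53 het 1. Mest, which encodes a protein of the alpha/beta hydrolase fold marking embryonic mesoderm, ran from 22.5 to 218 CPM (median 105) in R172H tumours and was 174, 95.6 and 40.7 CPM in R245W tumours. It was 89.2, 67.5, 35.8, 70.9 and 48.6 CPM in R270H tumours, against 30.01, 418, 34.2 and 39.9 CPM in p53 het tumours. Mest thus had 1 p53 het tumour above every other tumour and 3 near the bottom. For R270H against p53 het its log2 fold change was -1.29 ± 0.79 (SE, adjusted p = 0.571 in edgeR), and it turned to 0.78 without p53 het 2. Plagl1, a zinc finger transcription factor that restrains proliferation, ran from 24.2 to 124 CPM (median 42.4) in R172H tumours and was 62.4, 44.7 and 24.6 CPM in R245W tumours. It was 48.1, 51.6, 19.4, 26.2 and 64.8 CPM in R270H tumours, against 52.3, 116, 14.96 and 3.08 CPM in p53 het tumours. In p53 het 4 Plagl1 was the lowest of the series, and in the same tumour Meg3 and Dlk1 were the highest. All groups overlapped for these 3 genes.

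Across the list, 0 of 10 members passed an adjusted p of 0.05 in edgeR in R172H against p53 het, where 0.0776% of all genes tested passed, and 0 of 10 in R245W against p53 het (0.0728%) and in R270H against p53 het (0.0%, 0 genes). Between the mutants, 0 of 10 passed in R245W against R172H (0.155% of all genes tested), in R245W against R270H (1.24%) and in R270H against R172H (5.28%), and 0 of 10 passed the test for any difference between the 4 genotypes (2.86%). At an unadjusted p under 0.05 there were 1 member in R245W against p53 het (H19), 2 in R245W against R172H and 2 in R270H against R172H (H19 and Igf2 in both) and 0 in the other 3 contrasts. Over all genes tested, 12.5%, 10.8% and 23.2% met that level in the 3 contrasts named first, and 12.3% in R172H against p53 het, 11.5% in R270H against p53 het and 18.4% in R245W against R270H. In the test for any difference, H19 and Igf2 met it, as did 22.1% of all genes tested. The median log2 fold change of the members was 0.16 in R172H, -0.47 in R245W and -0.63 in R270H against p53 het, beside -0.02, -0.04 and -0.01 over all genes tested. The 3 contrasts share the p53 het tumours. Without p53 het 2 the median was 0.07 in R245W and 0.19 in R270H. In R172H it was -0.28 without R172H 1, -0.01 without p53 het 1 and -0.12 without p53 het 3, and with the kind of title as a covariate it was 0.09 in R270H. With 0 members called by edgeR, DESeq2 called 1 (Igf2) in R270H against R172H and in the test for any difference. Of all 20616 genes tested, DESeq2 called 2226 and 2475 there, so 1 of 10 members is near the share over all genes.

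**Figure D3:**
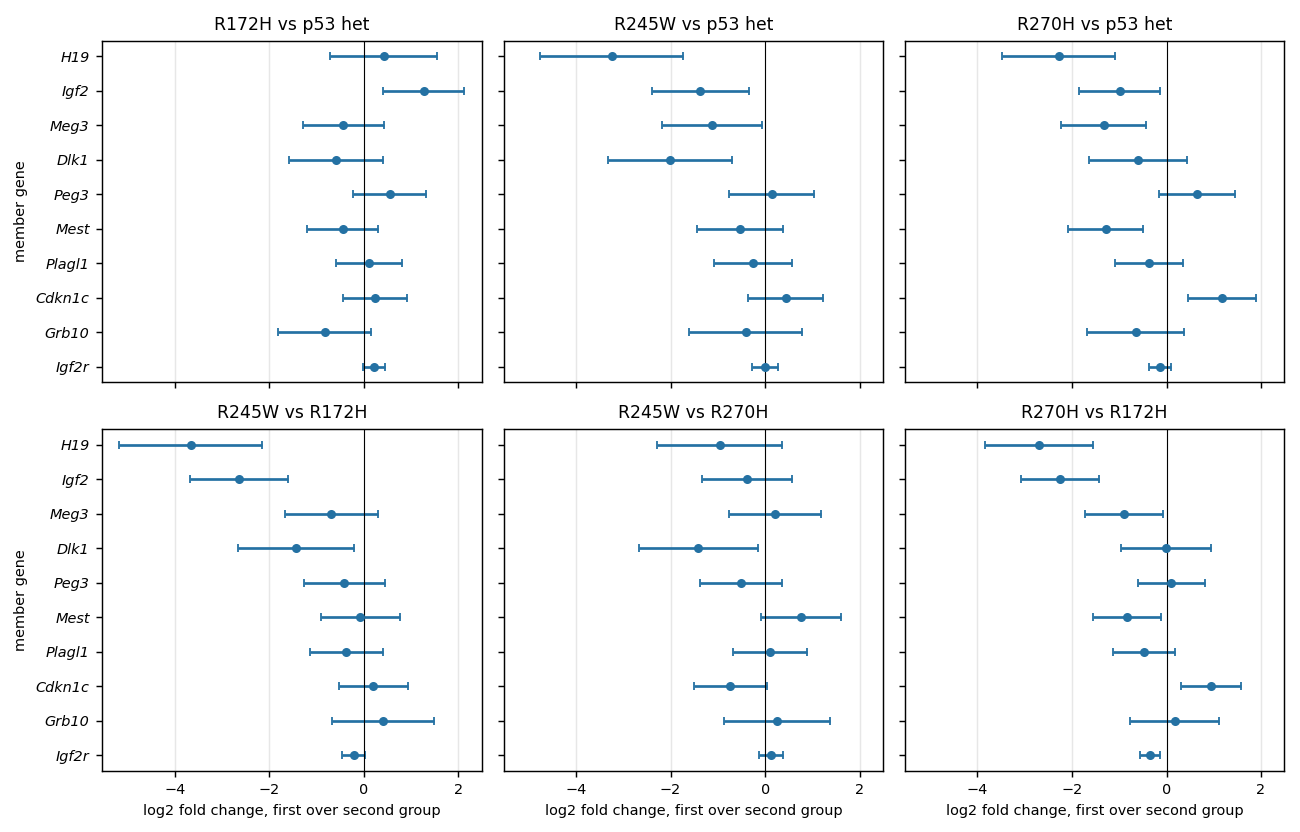
Log2 fold change of each member (first group over second) in 6 contrasts, with bars of ± 1 SE from edgeR. H19 in R245W against R172H, at -3.66 ± 1.51, is the farthest from 0, and Igf2r has the shortest bars.

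Most members varied widely between tumours of 1 genotype. The SD of log2 CPM within genotypes was 2.28 for H19, above that of 99.4% of all genes tested, and 1.97 for Grb10, above 98.6%. It was 1.65 for Meg3, 1.52 for Dlk1, 1.46 for Igf2, 1.42 for Peg3, 1.31 for Plagl1, 1.30 for Mest and 1.13 for Cdkn1c, above 89.0% to 96.9% of genes. Igf2r was the exception, with an SD of 0.35, above 25.8%. The median was 1.44 over the members and 0.51 over all genes tested. Compared with the 1000 genes nearest in mean level, at least 88.8% had a lower SD than each of the 9 variable members and 48.2% a lower SD than Igf2r. These shares describe the list, and no test was made of them. Genotype took up 3.24% (Mest) to 41.4% (Igf2) of a member's variance of log2 CPM, beside a median of 24.3% over all genes tested. These shares are not corrected for the number of groups, so spread between tumours alone adds to them. Igf2 did not pass for any difference (adjusted p = 0.161 in edgeR).

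**Figure D4:**
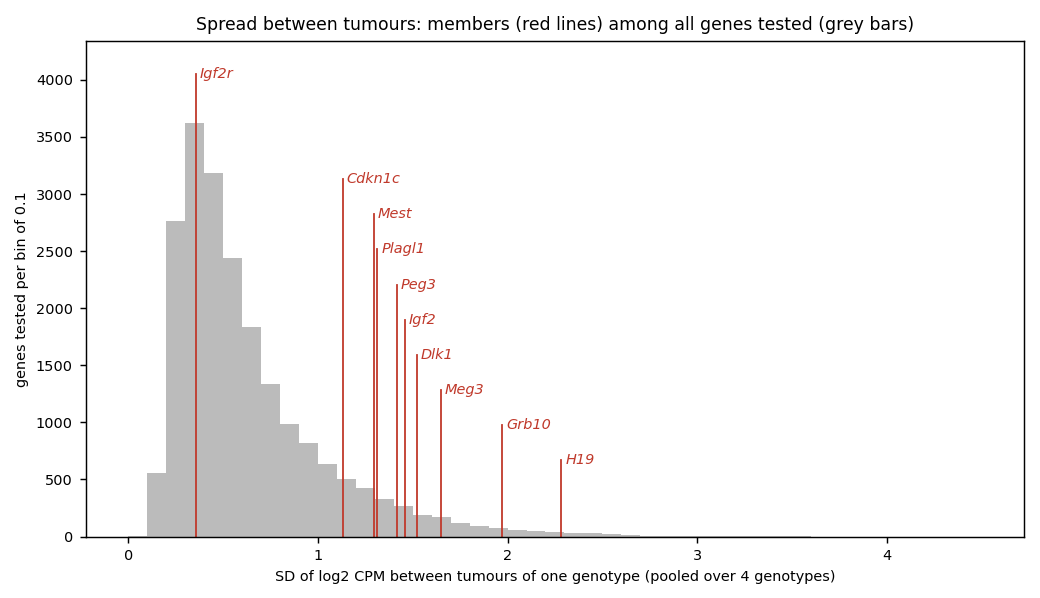
Number of genes tested (grey bars) by the SD of log2 CPM between tumours of 1 genotype, pooled over the 4 genotypes, with red lines of arbitrary height for the 10 members. Igf2r lies in the body of the distribution at 0.35, and the other 9 lie between 1.13 and 2.28 in its upper tail.

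Per kilobase of exon in the annotation, the median level over the tumours was 48.3 CPM for Grb10, 38.9 for Igf2r, 20.4 for H19, 17.5 for Mest, 5.88 for Plagl1, 3.27 for Igf2, 2.43 for Cdkn1c, 0.559 for Peg3, 0.221 for Meg3 and 0.104 for Dlk1. Neighbours in this order overlapped in their ranges over the tumours, as for Grb10 (3.78 to 150) and Igf2r (25.7 to 54.8).

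The p53 het 1 tumour was the lowest of 18 for 4 members (H19, Meg3, Peg3 and, tied at 0 counts, Dlk1), and it stood in the lower 9 for 8 of 10. R270H 3 was among the lower 9 tumours for all 10 members, p53 het 3, R245W 2 and R270H 5 for 8, and p53 het 2 for 1. Of the markers, skeletal muscle genes summed to 13.9 CPM in p53 het 1, the lowest of the tumours, and to 2435 CPM in p53 het 4, the highest, which was also highest in Meg3 and Dlk1. In edgeR fits with a skeletal muscle or an osteoblast score as a covariate, 0 of 10 members passed in any contrast. Of 20616 genes, 0 passed in R172H and in R270H against p53 het with either score. The most passed in R270H against R172H, 915 with the muscle and 1464 with the osteoblast score. As 0 of 10 members passed without the scores too, these fits do not show whether tissue content matters for the members.

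Pairs of members were compared over the 18 tumours after each genotype's mean was removed. Of 45 pairs, 35 had a Pearson r above 0 and 10 below, with a median of 0.19, and 0 of 45 passed after adjustment (smallest adjusted permutation p = 0.195). The highest were H19 with Peg3 (r = 0.77, Spearman rho 0.61), Meg3 with Peg3 (r = 0.71, rho 0.65), H19 with Dlk1 (r = 0.69, rho 0.65), Meg3 with Dlk1 (r = 0.64, rho 0.53), Igf2 with Plagl1 (r = 0.64, rho 0.56) and Mest with Cdkn1c (r = 0.57, rho 0.60), all with an unadjusted permutation p between 0.00437 and 0.0260 for r and an adjusted p of 0.195. Without p53 het 1 and p53 het 4, r was 0.51 for H19 with Peg3, 0.42 for Meg3 with Peg3, 0.38 for H19 with Dlk1 and 0.33 for Meg3 with Dlk1. For Igf2 with Plagl1 it was 0.50 without R172H 3 and p53 het 2, and for Mest with Cdkn1c 0.65 without R172H 5 and p53 het 2. Within the 11 tumours with serial numbers in their titles these 6 pairs had r from 0.39 to 0.76, and within the 7 others from 0.51 to 0.84.

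**Figure D5:**
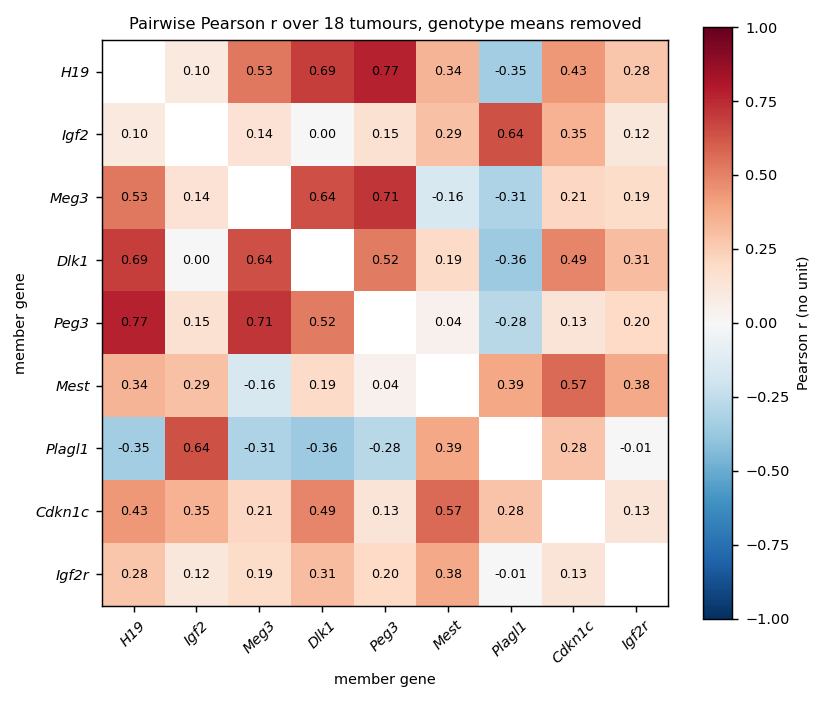
Pearson r of log2 CPM between pairs of members over 18 tumours, with genotype means removed, coloured from -1 (blue) to 1 (red). Grb10 is left out because its tumours form separate sets. The highest value is 0.77 for H19 with Peg3, and none passed after adjustment over 45 pairs.

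Members were also compared with genes at the same imprinted locus, in 10 pairs added after the data were seen, with genotype means removed and p-values adjusted over the 10. The pair of Grb10 with Ddc is not given because of the separate sets of Grb10. Meg3 varied between tumours with the other maternally expressed noncoding RNAs of its locus, Rian (r = 0.97, Spearman rho 0.96, adjusted permutation p = 5e-05) and Mirg (r = 0.94, rho 0.85, adjusted permutation p = 6.67e-05), where an adjusted 5e-05 comes from an unadjusted 1e-05, the smallest that the permutations can give. It did so too with Rtl1 (r = 0.97, rho 0.93, adjusted permutation p = 5e-05), which encodes a retrotransposon-derived placental protein on the paternal allele and whose maternal strand carries an antisense transcript, so that without strand the 2 cannot be told apart. Dlk1 with Rtl1 had r = 0.69 (rho 0.63, adjusted permutation p = 0.0132), and Peg3 with its neighbour Zim1 r = 0.83 (rho 0.84, adjusted permutation p = 4e-04). Rtl1 (0 to 2.70 CPM, median 0.521) and Zim1 (0 to 3.71 CPM, median 0.443) were close to the limit of detection. Mirg was low too, at 0.0394 to 4.83 CPM (median 1.07), and Rian was at 0.434 to 34.0 CPM (median 7.18). The 3 Meg3 pairs had r of 0.90 to 0.94 without p53 het 1 and p53 het 4, and 0.89 to 0.98 within each kind of title. Peg3 with Zim1 had 0.78 without those tumours, and 0.83 and 0.88 within the kinds of title, and Dlk1 with Rtl1 0.66 without R270H 1 and p53 het 1. Within the 11 tumours with serial numbers the Meg3 and Peg3 pairs passed and Dlk1 with Rtl1 did not (r = 0.66, adjusted permutation p = 0.173). Within the 7 others none of these 5 pairs passed, with adjusted permutation p-values of 0.0812 with Rian, 0.114 with Mirg and 0.0815 with Rtl1 for Meg3, 0.158 for Peg3 with Zim1 and 0.287 for Dlk1 with Rtl1 (r = 0.70). Permuting 7 tumours within genotype allows few arrangements, which limits how small p can be there. Mest with Copg2 (r = 0.50), Cdkn1c with Kcnq1ot1 (r = 0.06) and with Slc22a18 (r = -0.02), and Igf2r with its antisense RNA Airn (r = 0.13) did not pass, with adjusted permutation p-values from 0.158 to 0.948. Within the tumours with serial numbers and within the others, their r was 0.81 and 0.23 for Mest with Copg2, -0.07 and 0.41 for Cdkn1c with Kcnq1ot1, 0.54 and -0.94 for Cdkn1c with Slc22a18, and -0.03 and 0.50 for Igf2r with Airn. Kcnq1ot1 and Airn are noncoding RNAs whose paternal transcription silences Cdkn1c and Igf2r, and they were present at 86.8 to 507 CPM and 13.9 to 73.7 CPM in the tumours.

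Without centring on genotype, the genes most like each other member in log2 CPM over the 18 tumours by Pearson r were Gramd1a (0.86) and Frem1 (0.82) for H19, and Tmem147os (0.82) and Rnf122 (0.78) for Igf2. They were Rian (0.94) and Mirg (0.92) for Meg3, Sdc2 (0.76) and Stac3 (0.76) for Dlk1, and Extl3 (0.85) and Map1b (0.82) for Peg3. For Mest they were Mrgpre (0.76) and Avil (0.72), for Plagl1 Sh3bp5 (0.87) and Gimap4 (0.85), for Cdkn1c Dixdc1 (0.74) and Dlx6 (0.70), and for Igf2r Adamts4 (0.81) and Ttyh2 (0.80). Only for Meg3 were both on the member's own locus. These are the 2 highest of 13320 genes and carry no test.

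Of 80 relations between a member and a summed marker level, with genotype means removed, 0 passed after adjustment (smallest adjusted permutation p = 0.107) and 11 had an unadjusted permutation p under 0.05 for r. The highest were those of Meg3 with skeletal muscle (r = 0.76, rho 0.76), adipocyte (r = 0.74, rho 0.68) and muscle progenitor markers (r = 0.72, rho 0.72). Meg3 had a lower r with fibroblast markers (r = 0.63, rho 0.57). Dlk1 followed skeletal muscle (r = 0.63) and adipocyte markers (r = 0.57), and Peg3 muscle progenitor (r = 0.68) and skeletal muscle markers (r = 0.66). H19 had r = 0.67 with chondrocyte and -0.59 with osteoblast markers, and Igf2r had r = 0.60 with fibroblast markers. Adjusted permutation p-values of these 11 ran from 0.107 to 0.310. Plagl1 with endothelial markers, not among them, had r = 0.68 (unadjusted permutation p = 0.0598), and 0.147 without p53 het 2 and p53 het 4. H19 had 0.485 with chondrocyte markers without R172H 2 and p53 het 4, and -0.359 with osteoblast markers without R172H 4 and p53 het 4. Meg3 with skeletal muscle had 0.718 without R172H 6 and p53 het 4, and Igf2r with fibroblast markers 0.748 without R172H 2 and R172H 4.

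Other imprinted genes were read from a list of 50, of which 48 were in the table and 38 were tested. In R270H against R172H 1 of 38 was higher and 1 lower, where 5.28% of all genes tested passed in either direction. Gnas, which encodes the stimulatory G protein alpha subunit in a locus of overlapping sense and antisense transcripts, averaged 6.67 ± 1.28 CPM in R270H and 27.5 ± 7.29 CPM in R172H tumours (SD, n = 5 and n = 6), a log2 fold change of -2.02 ± 0.29 (SE, adjusted p = 0.00449 in edgeR). How reads of the overlapping transcripts were assigned is not known, so these counts may not hold the whole output of the gene. Gnas was also higher in R245W, at 19.7 ± 7.15 CPM, than in R270H tumours (log2 fold change 1.58 ± 0.32, SE, adjusted p = 0.0274 in edgeR), where 1 of 38 was called beside 1.24% of all genes tested. That call was lost without any 1 of R245W 1, R245W 3, R270H 1, R270H 2 or R270H 3, and with the kind of title as a covariate (log2 fold change 0.58, adjusted p = 0.696 in edgeR). With that covariate 8 of 20616 genes passed in this contrast. Copg2 was higher in R270H, at 51.8 ± 7.27 CPM, than in R172H tumours, at 32.9 ± 5.53 CPM (SD, log2 fold change 0.70 ± 0.14, SE, adjusted p = 0.0140 in edgeR). Both R270H against R172H calls held whichever of the 18 tumours was left out, with adjusted p-values of at most 0.0155 for Gnas and 0.0381 for Copg2 in edgeR. With the kind of title as a covariate neither passed, with a log2 fold change of -1.02 (adjusted p = 0.556) for Gnas and 0.52 (adjusted p = 0.608) for Copg2 in edgeR. Only 1 of 20616 genes passed in R270H against R172H in that fit, so a lost call there says little about any 1 gene. In the other 4 contrasts of the main fit 0 of 38 passed. Median log2 fold changes of the 38 lay between -0.21 and -0.09 over the 6 contrasts.

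Of 19 genes of the IGF axis, 1 passed in R270H against R172H, beside 5.28% of all genes tested. It was Igfbp4, which encodes an IGF binding protein. It averaged 159 ± 69.1 CPM in R270H and 405 ± 147 CPM in R172H tumours (SD), with a log2 fold change of -1.34 ± 0.32 (SE, adjusted p = 0.0261 in edgeR). The call was lost without any 1 of R172H 1, 2 or 4 or R270H 1, 3, 4 or 5, and with the kind of title as a covariate (log2 fold change -0.47, adjusted p = 0.850 in edgeR). In that covariate fit 1 of 20616 genes passed in this contrast. Igfbp7, another secreted binding protein, did not pass (adjusted p = 0.0619 for any difference in edgeR). The type 1 receptor gene Igf1r, at 37.2 to 174 CPM, and Igf1, at 14.2 to 51.0 CPM, were present in every tumour, and Igfbp5 had the widest range, at 64.6 to 4301 CPM.

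Of 20 genes that set or keep imprints, 17 were tested, and 1 passed in R270H against R172H, beside 5.28% of all genes tested. Cbx1, which encodes a heterochromatin protein, was higher in R270H, at 85.03 ± 17.6 CPM, than in R172H tumours, at 60.5 ± 9.91 CPM (SD, log2 fold change 0.52 ± 0.14, SE, adjusted p = 0.0437 in edgeR), and that call was lost in 11 of 18 fits without 1 tumour, which were those without R172H 1 to 6, R245W 1 or R270H 1 to 4. With the kind of title as a covariate its log2 fold change was 0.41 (adjusted p = 0.687 in edgeR), in a fit where 1 of 20616 genes passed in this contrast. Tet3, an enzyme that oxidises methylated cytosine, was the 1 of 17 to pass the test for any difference (adjusted p = 0.0494 in edgeR), beside 2.86% of all genes tested. With the kind of title as a covariate its adjusted p was 0.308 in edgeR, and of the 18 fits without 1 tumour it passed in 3, those without R245W 1, R270H 4 or p53 het 2. In the covariate fit 19 of 20616 genes passed the test for any difference. Of 13 genes listed around p57 (cyclins, kinases, Cdkn1a, Cdkn1b and Pcna), 1 passed in R245W against R270H, beside 1.24% of all genes tested. This was Cdk6, a cyclin-dependent kinase gene, which was higher in R245W, at 300 ± 168 CPM, than in R270H tumours, at 112 ± 33.8 CPM (SD, log2 fold change 1.43 ± 0.32, SE, adjusted p = 0.0384 in edgeR), a call lost without any 1 of R172H 1, R245W 1 or 2, or R270H 1, 2, 3 or 5. With the kind of title as a covariate its log2 fold change was 1.43 with an adjusted p of 0.469 in edgeR, in a fit where 8 of 20616 genes passed in this contrast. Cdk6 was also the 1 of 13 to pass the test for any difference (adjusted p = 0.0442 in edgeR), beside 2.86% of all genes tested, a call lost in 13 of 18 fits without 1 tumour and with the kind of title as a covariate (adjusted p = 0.287 in edgeR). Ccnd1, which encodes cyclin D1, did not pass (adjusted p = 0.245 for any difference in edgeR). In the contrasts with p53 het, 0 genes of these 3 lists and 0 of 38 other imprinted genes passed.

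In cell line 14, with 1 library per condition and no test, Trp53 was at 30.6 CPM after siRNA, against 94.9 CPM in the control, a ratio of 0.322 (95% exact Poisson interval 0.307 to 0.338, for counting error only). Of the 9 members at 1 CPM or more in at least 1 library of the line, 0 differed by 2-fold or more on CPM plus 1, a size reached by 0.125% of 13556 such genes. Dlk1, the other member, was at 0.314 CPM after siRNA and 0.265 CPM in the control. Adding 1 shrinks the ratios of members near 1 CPM. On CPM plus 0.1 the count of members at 2-fold was 0 too, with Peg3 at a log2 ratio of 0.855. Peg3 was at 1.30 CPM after siRNA and 0.671 CPM in the control (ratio of CPM 1.93, interval 1.33 to 2.84), H19 at 1.19 and 0.671 CPM (1.77, 1.21 to 2.61) and Igf2 at 1.55 and 1.06 CPM (1.46, 1.08 to 2.01). Meg3 was at 1.40 CPM after siRNA and 1.97 CPM in the control (0.714, 0.545 to 0.934), and Igf2r at 171 and 200 CPM (0.856, 0.835 to 0.878). Plagl1 was at 38.0 CPM after siRNA and 42.8 CPM in the control (0.888, 0.842 to 0.936) and Grb10 at 26.8 and 23.6 CPM (1.14, 1.06 to 1.22). Intervals for Mest, Cdkn1c and Dlk1 included a ratio of 1. The control library lay below all 18 tumours for H19, Igf2, Mest, Cdkn1c, Grb10 and Igf2r, and within their range for the other 4. Endothelial markers summed to 3.84 CPM and macrophage markers to 26.3 CPM in the control library, against 236 to 923 CPM and 846 to 2355 CPM in the tumours. Osteoblast markers summed to 8219 CPM and chondrocyte markers to 236 CPM there, against 34270 to 135600 CPM and 620 to 2486 CPM in the tumours. Fibroblast and adipocyte markers, at 1588 and 51.8 CPM, lay within the tumours' range, and both muscle sums lay below it. Of the noncoding partners, Kcnq1ot1 was at 1.81 CPM after siRNA and 2.09 CPM in the control and Airn at 1.45 and 1.23 CPM, below their lowest tumour levels given above.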

How the data were processed

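Gene counts of 18 tumour and 2 cell line libraries were used as deposited. Per the submitters' processing notes and the series' design text, the authors used STAR 2.6.0b for alignment to the GRCm38 genome and DESeq2 for differential expression, and the deposited table holds raw counts per gene. The counting program, annotation and strand setting are not given in the sources used here. No column was left out and no 2 libraries were identical. Of 49585 gene IDs, 49326 matched a symbol. Replicates were numbered in accession order.

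Tumour counts were tested in R 4.3.3 with edgeR 4.0.16: filterByExpr by genotype (minimum count 10, total 15), TMM scaling, and 1 quasi-likelihood model over 18 tumours with a mean per genotype. p-values were adjusted by Benjamini-Hochberg over 20616 genes within each contrast, with a threshold of 0.05. An SE is the log2 fold change over the square root of F. The step was tested on simulated data. Within-library ratios used exact two-sided permutation, and correlations of log2 CPM (prior count 2) used 100000 permutations within genotype. Poisson intervals have a confidence level of 95%, and intervals and floors (3 counts) cover counting error only. Alternatives were DESeq2 1.42.0, its size factors, no filter, voom with quality weights (limma 3.58.1), only the groups compared, only titles with a serial number, title kind, skeletal muscle or osteoblast score as covariate, other pseudocounts, and each tumour left out. By rule, all 10 members are named, and of the other lists the genes that passed, or else the 2 of lowest p. Beyond the rule, Igfbp7 and Ccnd1 are named though another gene of their list passed. Igf1r, Igf1 and Igfbp5 are named for their levels, and genes at the members' loci for correlations. The members, lists and naming rule were chosen with earlier results of these data known.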

Additional observations from a re-analysis of the deposited data

Results flagged for a closer look

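In 30 groups of 4 to 6 tumours of 1 genotype, 6 had a highest or lowest tumour whose gap to the next exceeded Dixon's 95% limit on the CPM scale, which chance does in about 1 of 20 groups of normally distributed values. H19 was highest in R172H 2, at 1066 CPM among 6 R172H tumours. Peg3 was highest in R172H 6, at 21.2 CPM, and Igf2r lowest in R172H 5, at 255 CPM, in the same group. In the 5 R270H tumours, Igf2 was highest in R270H 2, at 62.8 CPM, and Dlk1 in R270H 1, at 3.03 CPM. Mest was highest in p53 het 2, at 418 CPM among 4 p53 het tumours. On log2 of CPM plus 0.1, a scale added after the data were seen, 3 groups exceeded it, Mest and Igf2r as above and H19 in R270H 3, the lowest of its group. What set these tumours apart was not tested.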

How the results depend on the processing

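No paired analysis was possible because the labels give no numbers that link tumours across genotypes. The 60 log2 fold changes of the members were recomputed under the alternatives (1590 values), of which 2 passed, both for Igf2, 115 turned their sign, and 18 of the 60 never turned. The count of members called in R270H against R172H was 1 in DESeq2 and 0 to 1 when each tumour was left out, and 1 for any difference in DESeq2. Of 20616 genes, DESeq2 called 2226 in that contrast and 2475 for any difference. With the kind of title as a covariate, R270H against R172H turned to 0.69 for Igf2 and 2.88 for Plagl1, and R270H against p53 het to 0.71 for Mest, which ran from -1.64 to 0.78 with tumours left out. The covariate fit links R270H and R172H only through p53 het, and 1 of 20616 genes passed in that contrast. Voom with quality weights gave Grb10 0.28 in R172H against p53 het. Uncentred log2 CPM gave 1 pair passing, H19 with Dlk1. Causes were not tested. With CPM plus 1, the H19 to Igf2 ratio in R245W against p53 het was -0.14, and the Meg3 to Dlk1 ratio was 0.065 in R172H and -0.044 in R245W against p53 het, and -0.11 in R245W and -0.40 in R270H against R172H. Serial-number titles gave Meg3 to Dlk1 0.078 in R172H against p53 het, and H19 to Igf2 2.94 in R172H and 2.59 in R245W against p53 het. With tumours left out, H19 to Igf2 differences ran from -1.21 to 2.56 (R172H against p53 het), -1.56 to 2.21 (R245W against p53 het), -0.71 to 3.06 (R270H against p53 het), -0.89 to 0.13 (R245W against R172H) and -0.042 to 0.98 (R270H against R172H). Those of Meg3 to Dlk1 ran from -0.57 to 0.25 (R172H against p53 het), -0.47 to 0.59 (R270H against p53 het) and -0.38 to 0.84 (R270H against R172H). Depth limited Dlk1, at 0 counts in 2 tumours.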
